A study of Homo sapiens with 12 samples.

Results

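PANC-1, a human cell line from a pancreatic ductal adenocarcinoma, received either a control siRNA or one against SIK3, which the titles call siAS1, in a transfection of 72 h. The cells were then left unstimulated or given recombinant human TNF-α, an inflammatory cytokine, at 100 ng/mL. The comparison described here sets SIK3 siRNA against control siRNA after 30 min of TNF, and its members were chosen by the words in the names of the count tables. Tables whose names read SIK3 and 30 min (2 libraries) were compared with tables whose names read Scr1 and 30 min (2 libraries), 4 of the 12 libraries in all. The 4 unstimulated libraries, 2 with each siRNA and named CLM, gave the starting levels. Every group was made of 2 biological replicates, lettered B and C. All groups carried a transfected siRNA, and the knockdown rests on 1 siRNA sequence, called s1 in the design text. The series is titled around AS1 as a regulator of how tumours resist immune cells.

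The titles conflict with these names. By title, the libraries named SIK3 30 min are siCtrl1 with TNF for 4 h, and the libraries named Scr1 30 min are siAS1 unstimulated. The unstimulated libraries named SIK3 are titled siAS1 with TNF for 30 min, and the unstimulated libraries named Scr1 carry a matching title. Over the series, name and title conflict for 8 of 12 libraries and match for 4. Groups below follow the table names throughout, so every siRNA and every time is that of the names.

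The targeted gene, SIK3 (ENSG00000160584, chromosome 11, 116843402 to 117098437, minus strand of GRCh38), was at 42.5 and 68.7 CPM in replicates B and C with control siRNA and TNF. CPM is a gene's count relative to the library's total, normalised between libraries by edgeR's TMM method. With SIK3 siRNA and TNF it was at 17.3 and 24.03 CPM, 2.67-fold lower (log2 difference −1.42 ± 0.11 SE, n = 2 libraries a group, edgeR quasi-likelihood test, adjusted p = 1.66e-10). The groups did not overlap. Before TNF it was at 34.3 and 60.4 CPM with control siRNA against 16.3 and 22.4 CPM with SIK3 siRNA, 2.38-fold lower. SIK3 was therefore low in the libraries that the titles call control and high in those that they call siAS1, so within this pair it followed the table names and went against the titles.

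TNF bound to its receptor assembles a complex of adaptors, ubiquitin ligases and kinases that leads to the destruction of the inhibitor IκBα and lets NF-κB enter the nucleus. Within minutes NF-κB switches on short-lived mRNAs for chemokines, for survival factors and for the inhibitors that end the signal, while MAP kinases switch on immediate early genes such as FOS and the EGR family. Salt-inducible kinases, which include SIK3, are activated by the tumour suppressor kinase LKB1 and phosphorylate the CRTC coactivators and class IIa histone deacetylases, which holds both in the cytoplasm. When SIK activity falls, CRTCs can enter the nucleus and act with CREB on promoters that carry a cAMP response element.

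The early TNF genes on which the comparison turns are shown by their promoters, since many of them share a motif known to bind NF-κB. Stretches run from 120 to 21 bases before the RefSeq start (GRCh38.p14), 5′ to 3′ on the gene's strand, and capitals mark matches on either strand to the κB motif GGGNNNTTCC, where overlapping matches run together. The RefSeq starts of CXCL2, CXCL3, CCL20 and TNFAIP3 lie inside the longer GENCODE genes given further on, so their stretches lie partly or wholly within those genes.
CXCL1 (chr4:73869273-73869372, plus strand): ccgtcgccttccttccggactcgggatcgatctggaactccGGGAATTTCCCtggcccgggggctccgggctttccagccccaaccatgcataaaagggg
CXCL2 (chr4:74099216-74099315, minus strand): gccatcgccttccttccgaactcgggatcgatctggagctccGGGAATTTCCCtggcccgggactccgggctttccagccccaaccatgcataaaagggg
CXCL3 (chr4:74038710-74038809, minus strand): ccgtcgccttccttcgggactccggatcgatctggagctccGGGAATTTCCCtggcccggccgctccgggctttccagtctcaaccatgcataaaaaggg
CCL20 (chr2:227813722-227813821, plus strand): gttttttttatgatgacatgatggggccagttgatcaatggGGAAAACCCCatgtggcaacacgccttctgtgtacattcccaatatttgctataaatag
TNFAIP3 (chr6:137867139-137867238, plus strand): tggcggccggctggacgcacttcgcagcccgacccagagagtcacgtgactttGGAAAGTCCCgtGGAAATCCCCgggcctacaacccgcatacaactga
NFKBIA (chr14:35404770-35404869, minus strand): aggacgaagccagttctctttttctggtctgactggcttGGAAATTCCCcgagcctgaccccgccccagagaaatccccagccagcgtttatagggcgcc
Of 49 early TNF genes with an entry among the promoters (250 bases before to 50 after the start), 24 held this motif (49.0%), against 10.0% of 11342 tested genes with an entry and 7.83% of all 27305 genes there. Among the early TNF genes lower with SIK3 siRNA at 30 min the motif stood in 18 of 31. The matches are letters in a window and were not tested for binding.

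The 12 libraries held 13535825 to 22699756 counts in genes, and a gene with no count in 1 of the 4 libraries compared could lie at up to 0.152 to 0.162 CPM (3 counts, counting error only). The share of reads that mapped to several places was 17.6 and 30.9% in replicates B and C with control siRNA and TNF, 5.82 and 27.8% with SIK3 siRNA and TNF, and 4.94 to 45.3% over all libraries. The control TNF library of replicate B stood apart in ribosomal RNA of the mitochondrion, with MT-RNR1 at 1422 and 102 CPM in replicates B and C against 4.58 and 84.9 CPM with SIK3 siRNA. Defining epithelial markers were present, with the 7 of the ductal list summing to 6733 and 6373 CPM with control siRNA against 6457 and 5489 CPM with SIK3 siRNA in the presence of TNF. The 5 leukocyte markers summed to 2.63 to 2.88 CPM in the 4 libraries, and the 3 endothelial ones to 0.263 to 0.539 CPM. In these bulk libraries fewer cells of a kind and less RNA per cell cannot be told apart.

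Between SIK3 and control siRNA at 30 min, 9771 of 16695 genes tested passed an adjusted p of 0.05 (58.5%), of which 4758 were higher (28.5%) and 5013 lower (30.0%) with SIK3 siRNA. Before TNF 9746 genes passed between the siRNAs (58.4%). Calls at this rate are the background for every gene named below. Of 64 listed early TNF genes 59 passed the filter on low counts, and 38 were lower, 7 higher and 14 not called, with a median log2 difference of −0.70 against −0.01 over all genes tested. Without control TNF replicate B 38 were lower and 5 higher. Expression of 12 of 13 inhibitors and feedback genes, 8 of 12 chemokines, 6 of 13 cytokines and ligands, 2 of 3 adhesion genes and 9 of 13 survival and stress genes was lower with SIK3 siRNA. Without the replicate as a block the all-gene count was 6314 and 2 early TNF genes were higher. Before TNF, with the block, 30 of the 59 early TNF genes were already lower and 13 higher (median log2 difference −0.26).

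**Figure D1:**
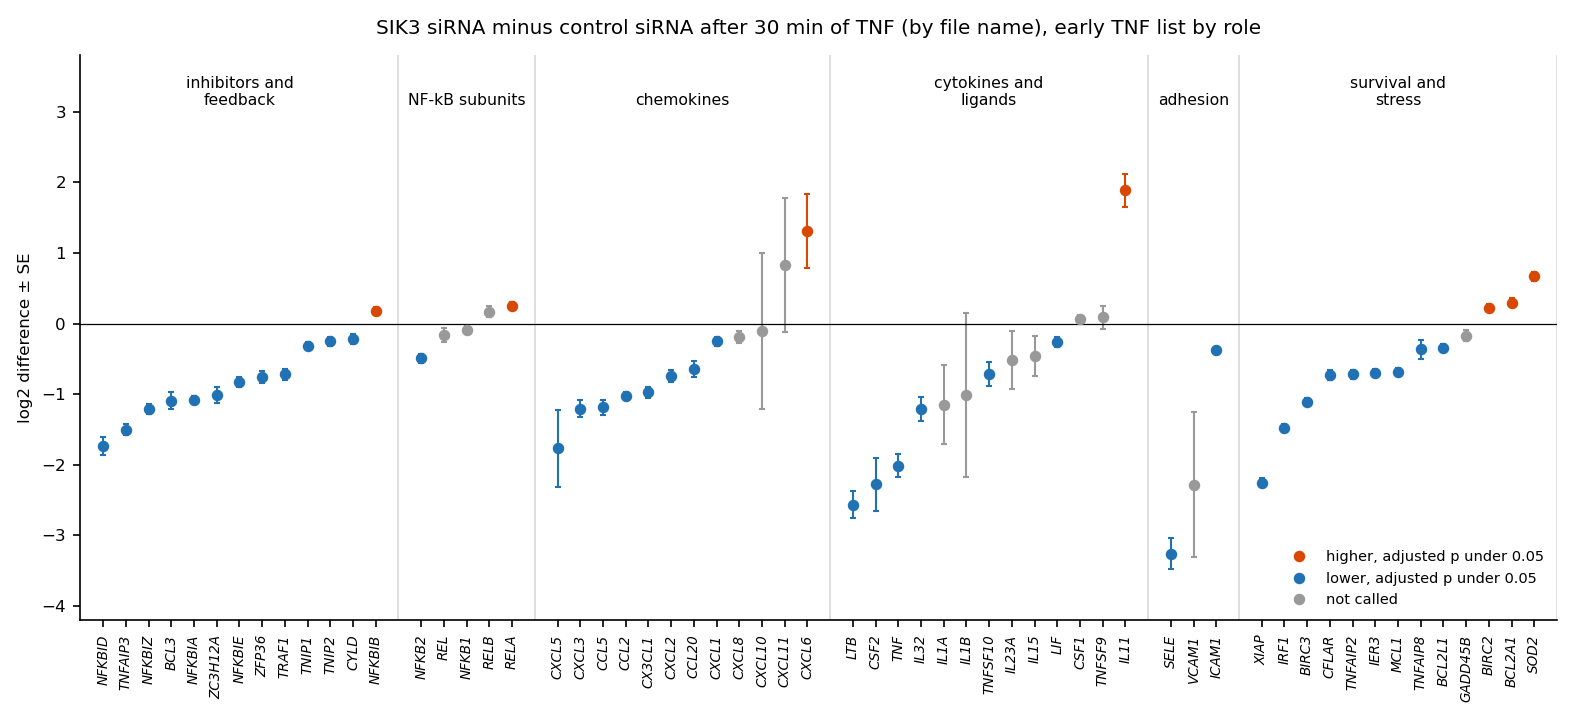
Log2 difference (vertical axis, ± SE) between SIK3 and control siRNA after 30 min of TNF for the 59 early TNF genes tested, grouped by role along the horizontal axis, with blue for lower, orange for higher and grey for not called. Of 13 inhibitors and feedback genes 12 are blue, and SELE is lowest of the list at −3.26.

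The inhibitors that end NF-κB signalling were lower with SIK3 siRNA almost throughout. TNFAIP3 (ENSG00000118503, chromosome 6, 137867188 to 137883312, plus strand), which encodes the ubiquitin-editing enzyme A20 and shuts off the receptor complex, was at 149 and 161 CPM with control siRNA and TNF and at 45.9 and 64.4 CPM with SIK3 siRNA and TNF. All values of the first pair lay above the second, a difference of 2.83-fold (log2 −1.50 ± 0.08 SE, edgeR adjusted p = 4.21e-13). Before TNF the gene was at 36.002 and 40.4 CPM with control siRNA, and at 19.6 and 22.6 CPM with SIK3 siRNA already 1.81-fold lower. NFKBIA (ENSG00000100906, chromosome 14, 35401511 to 35404749, minus strand), which encodes IκBα itself, was at 654 and 622 CPM with control siRNA against 314 and 288 CPM with SIK3 siRNA, 2.12-fold lower (log2 −1.08 ± 0.06 SE, adjusted p = 1.23e-12). Its unstimulated levels, 234 and 198 CPM with control and 166 and 147 CPM with SIK3 siRNA, were closer to each other, 1.38-fold apart. NFKBIZ (ENSG00000144802, chromosome 3, 101827991 to 101861022, plus strand), an atypical IκB protein that works in the nucleus as a coactivator of secondary NF-κB genes, reached 309.7 and 292 CPM with control siRNA against 119 and 142 CPM with SIK3 siRNA. The starting levels, 44.4 and 49.5 CPM with control and 40.2 and 37.1 CPM with SIK3 siRNA, differed 1.20-fold, and the levels at 30 min 2.31-fold (adjusted p = 3.55e-12).

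The other members of that role ranged from −1.73 for NFKBID, another nuclear IκB protein, to 0.18 for NFKBIB, which encodes IκBβ and was the exception, higher at 139 and 136 against 122 and 120.4 CPM (adjusted p = 0.00735). NFKBID was at 22.4 and 31.8 CPM with control siRNA against 6.36 and 10.1 CPM with SIK3 siRNA. ZC3H12A, which encodes Regnase-1, a nuclease that degrades cytokine mRNAs, was at 17.8 and 22.2 against 8.55 and 11.3 CPM (2.02-fold lower). ZFP36, whose product tristetraprolin also speeds the decay of cytokine mRNAs, differed more between replicates than between siRNAs. It was at 1101 and 2724 CPM in replicates B and C with control siRNA and at 532 and 1946 CPM with SIK3 siRNA, so the groups overlapped. Within replicate B it was 2.07-fold and within replicate C 1.40-fold lower, and its call (adjusted p = 5.56e-08) was lost without the replicate block (edgeR, adjusted p = 0.595).

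Among chemokines, TNF raised CXCL1, CXCL2, CXCL3 and CXCL8, neighbouring genes on chromosome 4 whose products attract neutrophils, with both siRNAs. CXCL1, CXCL2 and CXCL3 ended lower with SIK3 siRNA. CXCL3 (ENSG00000163734, chromosome 4, 74036589 to 74038807, minus strand) climbed from 0.952 and 1.06 to 24.02 and 22.4 CPM with control siRNA and from 1.17 and 1.56 to 9.83 and 10.3 CPM with SIK3 siRNA. At 30 min it was 2.30-fold lower with SIK3 siRNA (log2 −1.20 ± 0.13 SE, adjusted p = 3.67e-08), from starting levels that did not pass the test (log2 0.40, adjusted p = 0.338). CXCL2 (ENSG00000081041, chromosome 4, 74097035 to 74099293, minus strand) went from 7.40 and 9.19 to 54.3 and 62.01 CPM with control siRNA. With SIK3 siRNA it began higher, at 10.6 and 13.7 CPM, and ended lower, at 29.1 and 41.04 CPM (1.67-fold, adjusted p = 1.18e-07). CXCL1 (ENSG00000163739, chromosome 4, 73869393 to 73871242, plus strand) showed the same crossing: 27.4 and 34.4 CPM rose to 107 and 124 CPM with control siRNA, while 56.2 and 63.9 CPM rose to 88.2 and 106 CPM with SIK3 siRNA. The 30 min levels of CXCL1 differed by only 1.19-fold, a call that was lost without the replicate block (adjusted p = 0.303). CXCL8 (ENSG00000169429, chromosome 4, 73740506 to 73743716, plus strand), which encodes interleukin 8, overlapped between groups at 30 min, 87.3 and 70.4 against 81.4 and 58.3 CPM (log2 −0.19 ± 0.08 SE, adjusted p = 0.0623, or 0.0439 without control TNF replicate B).

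CCL20 (chromosome 2, 227805739 to 227817564, plus strand), an attractant of CCR6-bearing cells, rose from 13.7 and 9.61 to 33.95 and 24.2 CPM with control siRNA. With SIK3 siRNA it was at 20.9 and 11.3 CPM before and 21.4 and 15.7 CPM after 30 min, a response that did not pass the test (adjusted p = 0.439). At 30 min it was below control (1.56-fold, adjusted p = 2.6e-05, or 0.184 without the replicate block). The monocyte attractant CCL2 (chromosome 17, 34255218 to 34257203, plus strand) was at 548 and 703 CPM with control siRNA against 254 and 366 CPM with SIK3 siRNA (2.04-fold lower, adjusted p = 2.89e-13). It had moved in opposite directions, from an unstimulated 457 and 593 CPM (control siRNA) and 354 and 468 CPM (SIK3 siRNA). CX3CL1 and CCL5, ligands for receptors on T cells and monocytes, were 1.96-fold and 2.28-fold lower, and both were lower before TNF as well (1.63-fold and 2.04-fold). CXCL6 was the chemokine called higher, at 0.219 and 0.536 CPM with control siRNA, and at 1.43 and 0.539 CPM with SIK3 siRNA. The ratio of SIK3 to control siRNA was 6.497 in replicate B and 1.007 in replicate C.

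**Figure D2:**
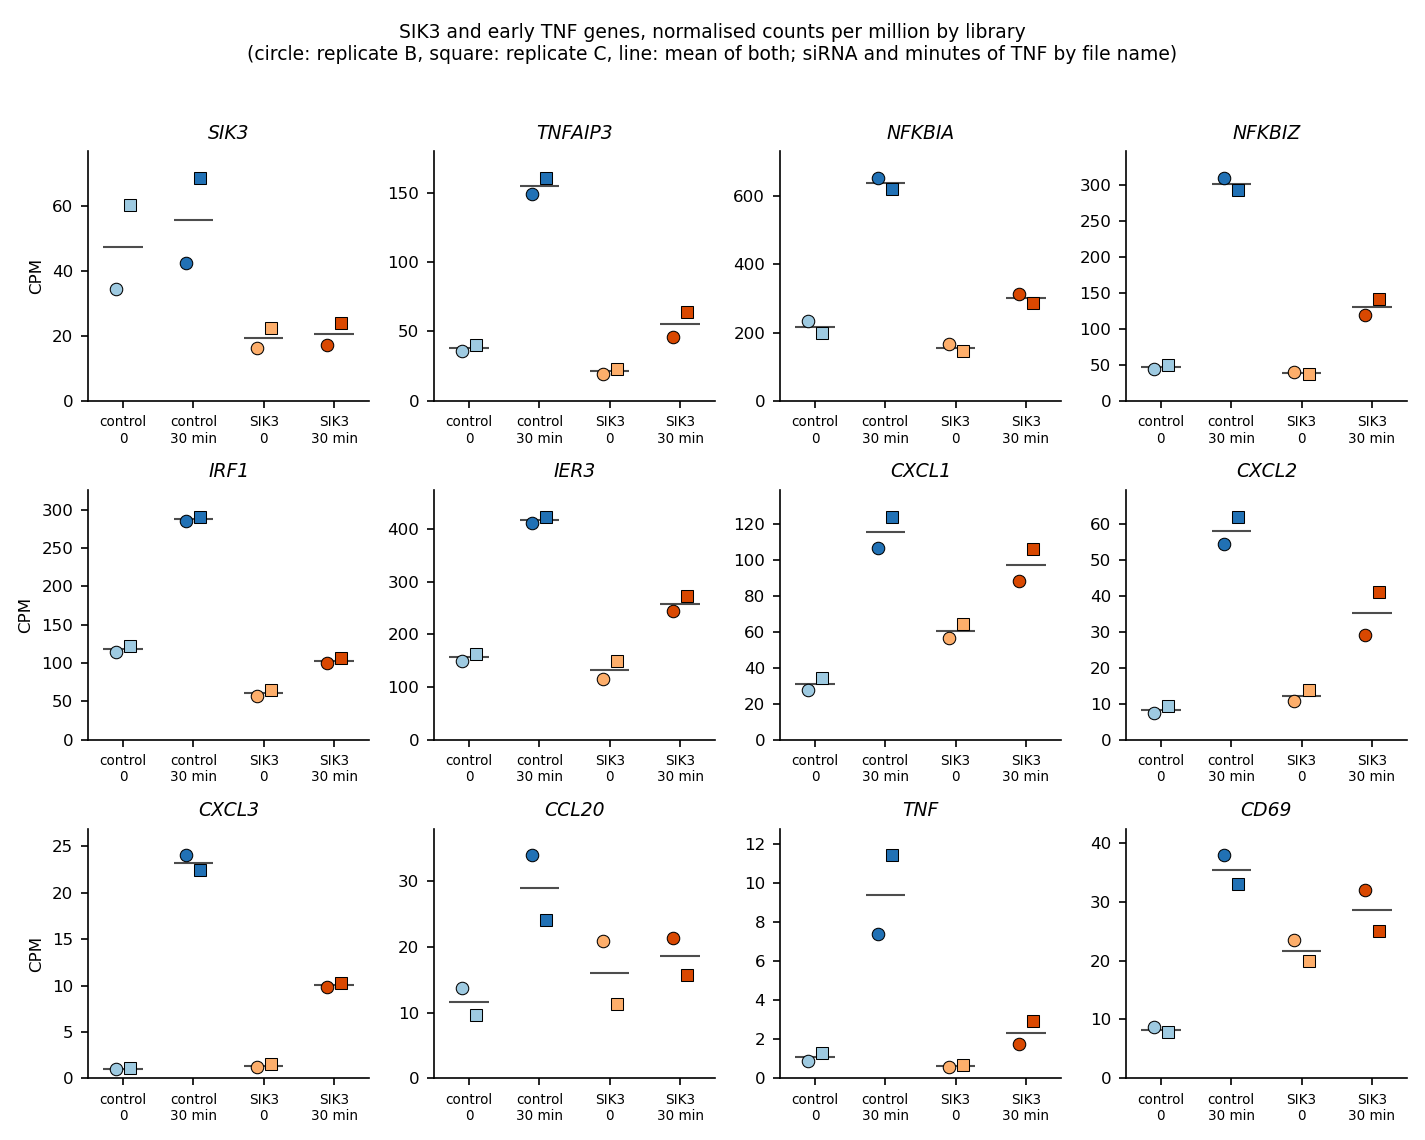
Normalised CPM (vertical axes, from 0) of SIK3 and 11 genes that TNF raised with control siRNA, in the 4 groups along each horizontal axis, with a circle for replicate B, a square for replicate C and a line at their mean. TNFAIP3, NFKBIA and IRF1 start and end lower with SIK3 siRNA, whereas CXCL1, CXCL2, CCL20 and CD69 start higher and end lower.

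Of 17 cytokine and ligand genes 13 passed the filter on low counts, and 6 of them were lower with SIK3 siRNA. TNF itself (ENSG00000232810, chromosome 6, 31575567 to 31578336, plus strand) was at 7.40 and 11.4 CPM with control siRNA against 1.73 and 2.94 CPM with SIK3 siRNA at 30 min (4.03-fold lower, log2 −2.01 ± 0.17 SE, adjusted p = 1.03e-09). From 0.899 and 1.27 CPM it had risen 8.55-fold with control siRNA, and from 0.585 and 0.680 CPM 3.52-fold with SIK3 siRNA. CSF2, which encodes the growth factor GM-CSF, was at 2.14 and 2.04 against 0.458 and 0.392 CPM, 4.85-fold lower. LTB, a membrane ligand of the lymphotoxin receptor, was 5.91-fold lower at 30 min and 5.22-fold lower before TNF. The exception was IL11, an interleukin 6 family cytokine, at 5.91 and 6.57 CPM with SIK3 siRNA and 1.97 and 1.39 CPM with control siRNA (3.71-fold higher, adjusted p = 4.45e-07). Its TNF fold changes in replicates B and C were 1.56 and 1.16 with control siRNA, and 0.780 and 0.956 with SIK3 siRNA. IL11 was thus higher with SIK3 siRNA before TNF as well. SELE (chromosome 1, 169722641 to 169764705, minus strand), the leukocyte adhesion receptor E-selectin, was at 8.996 and 7.93 CPM with control siRNA against 0.560 and 1.18 CPM with SIK3 siRNA (9.59-fold lower, adjusted p = 3.85e-11), with 16.1-fold in replicate B and 6.73-fold in replicate C. Without SIK3 TNF replicate C the log2 difference was −4.06. In replicates B and C TNF raised SELE 4.73 and 3.504-fold with control siRNA, against 1.49 and 3.46-fold with SIK3 siRNA. SELE was thus lower with SIK3 siRNA before TNF as well. Of the 3 adhesion genes 2 were called lower before TNF, and 0 were called in the interaction. ICAM1, the adhesion receptor for leukocyte integrins, was 1.30-fold lower, with overlapping groups (301 and 411 against 235 and 311 CPM).

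Survival genes were lower for the most part, 9 of 13 at 30 min, and before TNF 9 were already lower and 3 higher. XIAP (ENSG00000101966, chromosome X, 123859724 to 123913979, plus strand), an inhibitor of apoptosis, was at 337 and 299 CPM with control siRNA against 69.8 and 63.3 CPM with SIK3 siRNA (4.78-fold lower, adjusted p = 3.17e-17). Its response to TNF did not pass the test with either siRNA (log2 0.01 and 0.17, adjusted p = 0.975 and 0.218), and the difference was already 5.32-fold before TNF. BIRC3, the ubiquitin ligase cIAP2 of the TNF receptor complex, was 2.15-fold lower, CFLAR, which encodes the caspase-8 inhibitor FLIP, 1.66-fold, and MCL1, a short-lived member of the BCL2 family, 1.60-fold. IRF1 (ENSG00000125347, chromosome 5, 132481609 to 132490798, minus strand), a transcription factor that NF-κB induces and that drives interferon-type genes, rose from 114 and 123 to 285 and 291 CPM with control siRNA and from 56.6 and 64.3 to 99.3 and 107 CPM with SIK3 siRNA. Its highest level with SIK3 siRNA and TNF was thus below its lowest unstimulated level with control siRNA (2.79-fold lower at 30 min, adjusted p = 1.18e-15). IER3, a stress-inducible survival factor, was at 412 and 424 against 244 and 272 CPM (1.62-fold lower). SOD2, the mitochondrial superoxide dismutase that NF-κB induces later, was 1.59-fold higher, and BIRC2 and BCL2A1 were the other survival genes called higher.

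The components that carry the signal changed in both directions. Of the 5 NF-κB subunit genes, NFKB2 was lower (175 and 203 against 130.02 and 138 CPM), RELA was higher (1.19-fold, with overlapping groups), and NFKB1, REL and RELB were not called (log2 −0.09, −0.17 and 0.17). NFKB1 passed without SIK3 TNF replicate C (adjusted p = 0.0489), REL without control TNF replicate C (0.0191) and RELB with scaling by library totals (0.0084). In the list of the TNF receptor pathway 12 of 24 tested members were lower and 5 higher, with a median of −0.34. The share called, 70.8%, stood beside 58.5% over all genes tested. Before TNF 12 were already lower and 5 higher, and 0 of the 24 were called in the interaction. Both receptors were lower, TNFRSF1B at 44.1 and 55.2 against 18.8 and 24.3 CPM (2.30-fold) and TNFRSF1A 1.42-fold. MLKL, the effector of necroptosis, was 2.33-fold lower (7.40 and 5.68 against 2.49 and 3.09 CPM), and MAP3K7, the kinase TAK1 upstream of IκB kinase, was 1.52-fold higher. MAP3K8 and MAP3K14, kinases that feed the ERK and the alternative NF-κB pathways, were 1.36-fold and 1.51-fold lower.

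Whether the first 30 min of TNF moved a gene differently with SIK3 siRNA was asked by an interaction, the siRNA difference at 30 min minus that in unstimulated cells. It was called for 44 of 16695 genes (0.264%), with 31 below 0 (0.186%), a smaller rise or a larger fall with SIK3 siRNA, and 13 above 0 (0.0779%). This result rests on the replicate block: without it 0 genes were called by edgeR (317 at an unadjusted p under 0.05, against 1438 with the block), while DESeq2 and limma voom, both with the block, called 58 (38 below and 20 above 0) and 48. Without the TNF library of replicate B the count was 29 (SIK3 siRNA, 23 below and 6 above 0) or 30 (control siRNA, 24 below and 6 above). Without that of replicate C it was 53 (SIK3 siRNA) or 65 (control siRNA, 50 below and 15 above). Among the 59 early TNF genes 12 were below 0 and 1 above, and among 53 immediate early genes 8 were below and 2 above, or 1 above without control TNF replicate B. TNF alone raised 303 genes (1.81%) and lowered 161 (0.964%) with control siRNA, 464 in all (2.78%). Without control TNF replicate B it raised 112 and lowered 43, and without replicate C it raised 274 and lowered 88. With SIK3 siRNA it raised 279 (1.67%) and lowered 284 (1.70%), 563 in all (3.37%). Without SIK3 TNF replicate B it raised 139 and lowered 88, and without replicate C it raised 109 and lowered 139. Of the 31 genes below 0, 27 were called raised by TNF with control siRNA and 17 with SIK3 siRNA, and of the 13 above 0, 2 and 13. The interaction is the TNF response with SIK3 siRNA minus that with control siRNA, from the same libraries. These counts therefore follow in part from how the genes were selected and only describe them.

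The largest of these differences with a role in the early TNF list was that of TNFSF9, which encodes the costimulatory ligand 4-1BBL and was singled out after its values were seen. TNFSF9 rose 7.72-fold with control siRNA, from 0.899 and 0.636 to 6.53 and 5.41 CPM. With SIK3 siRNA it began at 4.26 and 3.54 CPM and reached 8.35 and 4.51 CPM, a 1.64-fold rise (interaction log2 −2.23 ± 0.33 SE, adjusted p = 0.00113). CXCL2 rose 7.03-fold with control and 2.89-fold with SIK3 siRNA (interaction −1.28 ± 0.15 SE, adjusted p = 5.73e-05), and within replicates B and C the rises were 7.34 and 6.75-fold against 2.74 and 2.99-fold. CXCL1 rose 3.74-fold against 1.61-fold (−1.22 ± 0.10 SE, adjusted p = 8.64e-07). CXCL8 rose 3.76-fold against 1.93-fold (−0.96 ± 0.13 SE, adjusted p = 0.000384). CCL20 had fold changes of 2.50 against 1.15 (−1.12 ± 0.17 SE, adjusted p = 0.00112). ZFP36 rose 6.60-fold against 2.84-fold (adjusted p = 5.73e-06), or 7.01 and 6.19-fold in replicates B and C against 2.41 and 3.27-fold. Each of these 6 genes had a higher start and a shorter climb with SIK3 siRNA. The climb was measured from the same unstimulated libraries, so start and climb are not independent.

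A second pattern was a lower start with a shorter climb. NFKBIZ rose 6.43-fold with control and 3.35-fold with SIK3 siRNA (interaction −0.94 ± 0.11 SE, adjusted p = 4.49e-05). NFKBIA rose 2.96-fold against 1.93-fold (−0.62 ± 0.08 SE, adjusted p = 0.000414). IRF1 rose 2.44-fold against 1.71-fold (−0.51 ± 0.08 SE, adjusted p = 0.00113). TNFAIP3 rose 4.06-fold against 2.60-fold (−0.64 ± 0.12 SE, adjusted p = 0.0127), a call lost without TNF replicate B of either siRNA (adjusted p = 0.115 and 0.0948). IER3 rose 2.68-fold against 1.97-fold (−0.44 ± 0.09 SE, adjusted p = 0.0241), lost without any 1 of 3 libraries (adjusted p from 0.0956 to 0.237). CCL2 rose 1.19-fold with control siRNA and fell 1.34-fold with SIK3 siRNA (adjusted p = 1.91e-05). Other genes that TNF raised with control siRNA were not called in the interaction: CXCL3 at −1.60 ± 0.37 SE (adjusted p = 0.0775), TNF at −1.28 ± 0.41 SE (adjusted p = 0.321) and ZC3H12A at −0.84 (adjusted p = 0.0575). MCL1 was the early TNF gene above 0. It was at 532 and 479.8 CPM before and 509.8 and 441 CPM after TNF with control siRNA, and rose 1.29-fold with SIK3 siRNA, from 257 and 202 to 326 and 268 CPM (interaction 0.46 ± 0.07 SE, adjusted p = 0.00233).

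**Figure D3:**
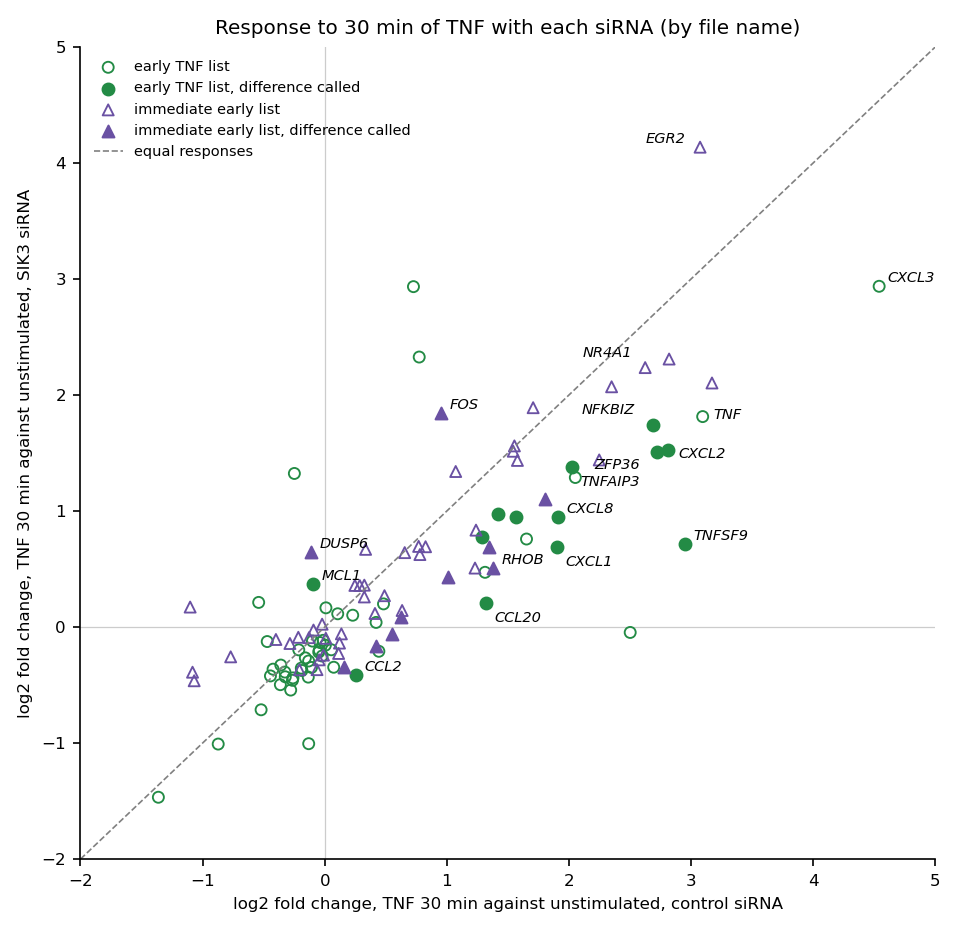
Log2 fold change after 30 min of TNF with control siRNA (horizontal axis) and with SIK3 siRNA (vertical axis) for the members tested of the early TNF list (circles) and the immediate early list (triangles), filled where the interaction was called; the dashed line marks equal responses. CXCL1, CXCL2, CXCL8, CCL20, TNFSF9, ZFP36 and NFKBIZ lie below the line, and FOS, DUSP6 and MCL1 above it.

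Outside the early TNF and immediate early lists, CD69 (chromosome 12, 9752486 to 9760901, minus strand), an activation marker best known from lymphocytes, rose from 8.72 and 7.85 to 37.8 and 32.9 CPM with control siRNA. With SIK3 siRNA it moved from 23.5 and 19.9 to 32.02 and 25.01 CPM, 1.32-fold against 4.30-fold (interaction −1.71 ± 0.14 SE, adjusted p = 8.64e-07). NUAK2 (chromosome 1, 205302059 to 205321791, minus strand), a kinase of the AMPK-related family to which SIK3 also belongs, rose from 55.98 and 88.6 to 89.7 and 129.6 CPM with control siRNA and fell from 65.1 and 105 to 48.5 and 85.9 CPM with SIK3 siRNA (interaction −0.96 ± 0.10 SE, adjusted p = 1.4e-05). TXNIP (chromosome 1, 145992435 to 145996600, minus strand), an inhibitor of thioredoxin and of glucose uptake, went the other way. With control siRNA it fell from 53.02 and 42.8 to 33.5 and 36.1 CPM, and with SIK3 siRNA it rose from 21.2 and 21.2 to 35.5 and 34.5 CPM (interaction 1.19 ± 0.12 SE, adjusted p = 1.44e-05). Its arrestin-domain relatives ARRDC4 and ARRDC3 were above 0 too (0.65 and 0.57), as were HMOX1, the haem-degrading enzyme, at 0.71, SIAH1, a ubiquitin ligase, at 0.61, and KLHL15 at 0.56. The calls of ARRDC4 and SIAH1 were each lost without TNF replicate B of either siRNA (adjusted p from 0.0792 to 0.129), and that of KLHL15 without SIK3 TNF replicate B (0.0792).

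Of the 23 genes below 0 with a promoter entry, 11 held the κB motif (47.8%), against 10.0% of genes tested. Of the 10 above 0 with an entry, 0 held it. For the lists as a whole the motif stood in 24 of 49 early TNF promoters (49.0%) and in 4 of 42 immediate early ones (9.52%). Of the 31 genes below 0, 27 were called raised by TNF with control siRNA and 12 were in the early TNF list. The share of the motif among all genes that TNF raised was not counted.

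Immediate early genes, which need no new protein to be switched on, were split. All 53 listed were tested, with 25 higher and 20 lower with SIK3 siRNA at 30 min (median 0.09), or 12 lower without the replicate block. Before TNF 30 of the 53 were already higher and 17 lower (median 0.39). At 30 min the NR4A orphan nuclear receptors and EGR2 were higher. Of the 7 EGR and NR4A genes 5 were already higher and 1 lower before TNF (median 1.14). The interaction was called for 0 of these 7. EGR2 (ENSG00000122877, chromosome 10, 62811996 to 62919900, minus strand), a zinc-finger factor, rose from 2.01 and 2.83 to 17.1 and 23.7 CPM with control siRNA and from 2.59 and 2.18 to 36.4 and 52.9 CPM with SIK3 siRNA, 2.18-fold higher at 30 min (log2 1.13 ± 0.11 SE, adjusted p = 8.58e-09). Starting levels of EGR2 did not pass the test (log2 0.06, adjusted p = 0.846), and neither did its interaction (1.06 ± 0.27 SE, adjusted p = 0.148). NR4A1, induced by calcium, cAMP and cytokines, was at 10.4 and 10.4 against 29.1 and 37.02 CPM (3.16-fold higher, adjusted p = 2.63e-10) and NR4A3 at 2.36 and 2.30 against 10.8 and 14.5 CPM (5.41-fold). In replicates B and C NR4A1 rose 5.30 and 8.21-fold with control siRNA, against 5.05 and 4.35-fold with SIK3 siRNA. For NR4A3 the rises were 4.46 and 1.48-fold against 1.83 and 1.72-fold. EGR1, a relative of EGR2, was 1.73-fold lower. It stood at 106 and 268 CPM in replicates B and C with control siRNA, against 52.5 and 177 CPM with SIK3 siRNA, so the groups overlapped. The call of NR4A2 (1.51-fold higher) was lost without replicate C of either siRNA (adjusted p = 0.53 and 0.45), and that of EGR4 without any 1 of the 4 libraries (0.0561 to 0.11).

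Among AP-1 genes, JUNB (89.8 and 84.4 against 53.2 and 56.3 CPM) and MAFF (64.4 and 69.9 against 36.3 and 31.6 CPM) were lower with SIK3 siRNA, while FOSL2 and JUND were 2.22-fold and 2.17-fold higher. JUN, the central AP-1 subunit, was at 487 and 463 CPM with control siRNA against 432 and 402 CPM with SIK3 siRNA, 1.14-fold lower (adjusted p = 0.00217). The call was lost with no replicate block (0.103) or with scaling by library totals (0.0961). It rose 2.55-fold with control siRNA and 1.61-fold with SIK3 siRNA (interaction −0.66 ± 0.07 SE, adjusted p = 1.44e-05). FOS showed the reverse. It rose from 38.9 and 38.95 to 63.8 and 88.8 CPM with control siRNA (1.94-fold) and from 18.02 and 18.9 to 57.02 and 77.6 CPM with SIK3 siRNA (3.60-fold). The interaction of FOS was 0.89 ± 0.15 SE (adjusted p = 0.00453, or 0.0578 without SIK3 TNF replicate C and 0.0515 without control TNF replicate B). DUSP6, a phosphatase that switches off ERK, had the same order. With control siRNA it was at 61.1 and 54.9 CPM before and 53.97 and 53.7 CPM after TNF, and with SIK3 siRNA it rose from 25.96 and 22.04 to 35.9 and 40.01 CPM (interaction 0.76 ± 0.12 SE, adjusted p = 0.00339). DUSP5 and DUSP1, phosphatases of nuclear ERK and of p38 and JNK, were higher at 30 min (4.03-fold and 1.53-fold) with interactions below 0 (−0.58 and −0.58). RHOB, TRIB1, EDN1, IER5 and FOSL1 were the other members below 0, at −0.87, −0.70, −0.61, −0.54 and −0.50. The calls of IER5 and FOSL1 were lost without SIK3 TNF replicate C (0.0958 and 0.0781) or control TNF replicate B (0.077 and 0.165), and that of FOSL1 without SIK3 TNF replicate B as well (0.107).

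Targets of CREB and CRTC were higher with SIK3 siRNA: 14 of 20 listed genes were higher and 2 lower, with a median of 1.18. The list was known to move in these data when it was chosen, so its direction is a description. SIK1 (ENSG00000142178, chromosome 21, 43414483 to 43427189, minus strand), a sister kinase whose own gene is a CREB target, was at 3.84 and 5.73 CPM with control siRNA against 19.1 and 22.1 CPM with SIK3 siRNA (4.31-fold higher, log2 2.11 ± 0.13 SE, adjusted p = 4.5e-12). A near-identical copy, SIK1B, held 28 counts in the 12 libraries together (SIK1 held 2428), and how reads that fit both were counted is not known. SIK2, the remaining sister kinase, was at 38.8 and 45.3 against 46.02 and 61.7 CPM (1.28-fold higher, adjusted p = 0.000238, or 0.161 without the replicate block). VGF and SCG2, which encode granule proteins of secretory cells, were 18.01-fold and 13.6-fold higher, VGF at 30.5 and 36.1 against 1.81 and 1.87 CPM and SCG2 at 129 and 128 against 9.49 and 9.32 CPM. The EGF receptor ligands AREG and EREG were 3.42-fold and 2.19-fold higher. CREM, whose inducible short form represses CREB targets, was at 9.60 and 7.71 against 29.5 and 22.1 CPM, and INHBA, which encodes an activin subunit, at 4.39 and 4.02 against 8.81 and 10.8 CPM (2.97-fold and 2.33-fold higher). Before TNF 15 of the 20 were higher and 1 lower, with a median of 1.34 (for example SIK1 5.94-fold, VGF 24.97-fold, SCG2 12.7-fold, AREG 2.48-fold, EREG 1.87-fold). PPARGC1A, a coactivator of mitochondrial genes, and FOSB were the members called lower (−1.94 and −0.49), FOSB with overlapping groups. Among the 20 the interaction was called for DUSP1.

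Promoters of 17 of the 20 had an entry, and 5 of these (29.4%) held the full cAMP response element TGACGTCA, which reads the same on both strands, against 3.84% of genes tested. The list was made of CREB and CRTC targets, so this share describes the list and not an effect of the siRNA. The element is shown in capitals for AREG and VGF, members that were higher with SIK3 siRNA, over the same stretch from 120 to 21 bases before the start.
AREG (chr4:74445016-74445115, plus strand): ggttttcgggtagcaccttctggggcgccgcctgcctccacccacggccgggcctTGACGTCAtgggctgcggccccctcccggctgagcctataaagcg
VGF (chr7:101165590-101165689, minus strand): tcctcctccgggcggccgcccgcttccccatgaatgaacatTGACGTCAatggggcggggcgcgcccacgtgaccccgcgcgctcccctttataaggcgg

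**Figure D4:**
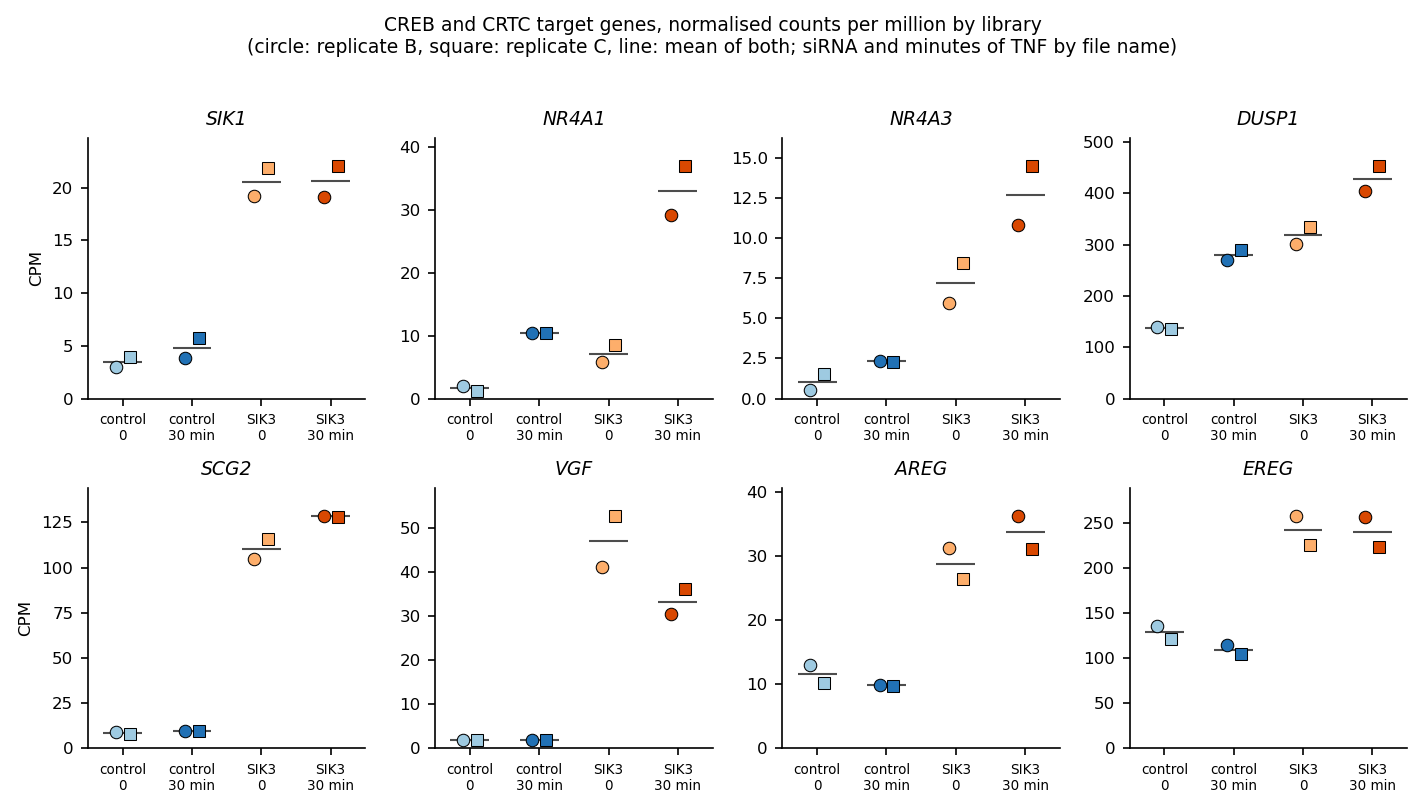
Normalised CPM (vertical axes, from 0) of 8 CREB and CRTC target genes in the 4 groups along each horizontal axis, with a circle for replicate B, a square for replicate C and a line at their mean. SIK1, SCG2, VGF, AREG and EREG are higher with SIK3 siRNA at both times, and NR4A1, NR4A3 and DUSP1 also rise with TNF.

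Genes of the kinase pathway around SIK3 were mixed, with 5 of 21 tested higher and 9 lower. STK11, which encodes LKB1, was 1.89-fold higher (105 and 98.9 against 201 and 183 CPM), and STRADB, a pseudokinase partner that activates it, 2.56-fold lower. CREB1 was 1.80-fold lower. CRTC3 was 1.15-fold lower with overlapping groups, and CRTC1 and CRTC2 were not called. HDAC7, a class IIa histone deacetylase, was 2.09-fold lower.

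Beyond signalling, 28 of 28 cell cycle genes were lower with SIK3 siRNA at 30 min, with a median of −1.995, and 28 of 28 were lower before TNF. TOP2A, which untangles chromosomes, was at 813 and 774 CPM with control siRNA against 62.3 and 66.5 CPM with SIK3 siRNA (12.3-fold lower, adjusted p = 9.83e-20), and CCNB1, the mitotic cyclin, was 4.45-fold lower. This drop stood beside every early TNF difference above, and its part in them was not tested. Interferon-stimulated genes were higher in 12 of 17 and lower in 3, with the antiviral genes IFI6 9.25-fold and MX1 8.78-fold higher. In the list of antigen presentation 8 of 16 were higher and 4 lower: HLA-E was 1.59-fold and HLA-B 1.46-fold higher, and CD274, the checkpoint ligand PD-L1, 2.28-fold lower (1.54 and 1.34 against 0.662 and 0.588 CPM). Of 12 p53 targets 5 were higher and 5 lower, with the CDK inhibitor CDKN1A 2.46-fold lower and the oxidoreductase gene TP53I3 3.01-fold higher. Before TNF 13 interferon-stimulated genes were already higher and 2 lower (median 0.74, against 0.66 at 30 min). The counts before TNF were 7 higher and 4 lower in antigen presentation, and 4 higher and 6 lower among p53 targets. Of 7 epithelial markers 6 were lower, CDH1, which encodes E-cadherin, 2.32-fold, and 5 were lower before TNF. The calls of KRT19 and KRT8, keratins of simple epithelium, were lost without the replicate block (adjusted p = 0.151 and 0.116). The 5 fibroblast markers summed to 15.4 and 18.8 CPM with control siRNA against 28.4 and 30.3 CPM with SIK3 siRNA in the presence of TNF, and their part in any result was not tested. Mitochondrially encoded mRNAs were lower in 10 of 13, but replicates differed more than siRNAs: they summed to 2311 and 8306 CPM in B and C with control siRNA, against 1272 and 8135 CPM with SIK3 siRNA. The groups overlapped for each of the 13, and the calls of MT-ND5, MT-ATP6 and MT-CO2 were lost without replicate B of either siRNA (adjusted p from 0.0569 to 0.201).

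**Figure D5:**
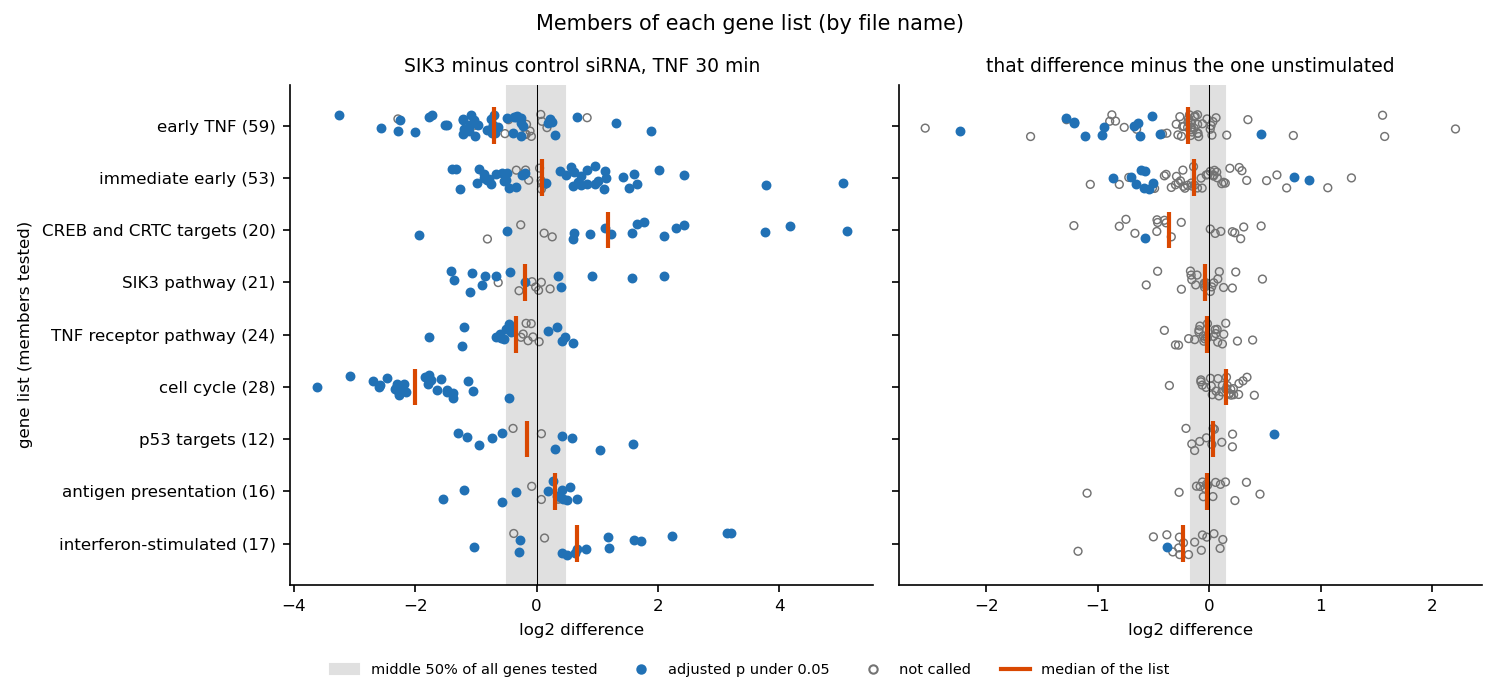
Each point is a gene of the list named on the vertical axis, at its log2 difference between siRNAs after 30 min of TNF (left panel) and at that difference minus the one in unstimulated cells (right panel), with a bar at each list's median and grey for the middle 50% of all 16695 genes tested. Cell cycle genes, except POLA1 at −0.46, sit to the left of the grey band and CREB and CRTC targets mostly to its right at 30 min, and in the right panel called genes lie mainly among the early TNF and immediate early lists.

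The genes with the largest differences were mostly outside these signalling lists. Of the 20 named by fold, 10 in each direction, 8 had 1 to 3 counts in the lower group and are not described. SLC9A3, a sodium and proton exchanger, was at 11.4 and 11.3 CPM with SIK3 siRNA and 0.219 and 0.375 CPM with control siRNA (37.2-fold higher). DIO2, the enzyme that activates thyroid hormone and a CREB target of the list above, was 34.6-fold higher (11.1 and 10.003 against 0.329 and 0.268 CPM), and SNAI2, which encodes the mesenchymal regulator SLUG, 26.5-fold (8.50 and 9.07 against 0.274 and 0.375 CPM). ADRA1D, an adrenergic receptor gene, had no count with control siRNA and TNF and was at least 13.8-fold higher (3 counts over the group). ARHGAP19, which encodes a GTPase-activating protein, was at 88.7 and 81.5 CPM with control siRNA against 6.47 and 6.13 CPM with SIK3 siRNA (13.5-fold lower), and CEP55, needed for the final step of cell division, was 12.996-fold lower. The 2 mitochondrial ribosomal RNAs reached this group through 1 library: without control TNF replicate B, the log2 difference of MT-RNR1 was −0.28 (adjusted p = 0.577), in place of −6.19, and that of MT-RNR2 was −0.19 (adjusted p = 0.831), in place of −5.53. ENSG00000277048.1, which has no symbol in the tables, likewise went from −5.05 to 0.06 (adjusted p = 0.883) without that library. SERPINA3, an acute-phase protease inhibitor, was among the genes that TNF raised most with control siRNA, from 0.159 and 0.0707 to 4.28 and 4.93 CPM, and with SIK3 siRNA it went from 0.167 and 0.204 to 0.305 and 0.637 CPM (interaction −3.83 ± 0.93 SE, adjusted p = 0.112). By contrast, TNF moved DIO2 1.04 and 0.947-fold in replicates B and C with control siRNA, and 1.33 and 1.11-fold with SIK3 siRNA. SNAI2 moved 0.741 and 0.758-fold against 0.782 and 0.609-fold, and ARHGAP19 0.993 and 1.02-fold against 1.21 and 1.43-fold. CEP55 moved 1.01 and 0.954-fold against 1.11 and 1.07-fold. DIO2, SNAI2, ARHGAP19 and CEP55 thus differed between siRNAs before TNF as well.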

How the data were processed

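Libraries were made from total RNA of PANC-1 with a ScriptSeq kit, per the labels' protocols. The authors' deposited tables hold raw counts per gene for 60669 identifiers. STAR 2.05b, edgeR and GRCh38 are named in the submitters' processing notes. The strand used in counting and the annotation release are not given in the sources used here, so reads of overlapping and antisense genes cannot be told apart. The 4 rows of each table that name no gene (unmapped, multimapping, without feature, ambiguous) stayed out of library sizes and tests. Multimapping reads were 4.94 to 45.3% of the total.

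Genes were filtered with filterByExpr (minimum count 10), scaled by TMM and fitted with edgeR 4.0.16's quasi-likelihood test (R 4.3.3) on all 12 libraries in 6 groups, with the replicate letter as a block (5 residual degrees of freedom). P-values were adjusted by Benjamini-Hochberg over the 16695 genes tested, with a threshold of 0.05. Standard errors are the fold change on the log2 scale divided by the root of F. The script was tested on simulated data. Replicates sharing a letter deviated together in all 15 pairs of groups (correlation 0.35 to 0.53), so the letters were taken to pair the libraries, from the data and not from the labels. The design text calls the replicates biological without saying from which cultures, and p-values measure the spread between these libraries. The comparisons of TNF within each siRNA share libraries with the 30 min pair.

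The comparison, the gene lists and the rules were chosen with earlier results of these data known. Genes named were SIK3, SIK1 and SIK2. From the 3 signalling lists up to 6 called, non-overlapping members a role and up to 3 uncalled ones were taken, and up to 4 from each other list. To these came the 10 largest folds in each direction, the 10 smallest p each way in the interaction, and the 10 genes most raised by TNF. A few genes that these rules name are not reported here. Other genes named in the text were chosen after their values were seen. Gene coordinates are those of GENCODE 29 and promoters those of RefSeq (GRCh38.p14). Alternatives were DESeq2 1.42.0, limma 3.58.1 (voom), other scalings, filters and thresholds, fewer libraries, each library of the pair left out, no block, and conditions from the titles.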

Additional observations from a re-analysis of the deposited data

Results flagged for a closer look

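For 31 of the genes described, the difference between SIK3 and control siRNA at 30 min of TNF was not the difference found before TNF, by the edgeR interaction test at an adjusted p of 0.05. Values are log2, and below 0 means a smaller rise or a larger fall with SIK3 siRNA. Among early TNF genes the feedback inhibitors were TNFAIP3 (−0.644), NFKBIA (−0.618), NFKBIZ (−0.941) and ZFP36 (−1.22). The chemokines and the ligand gene TNFSF9 were CXCL1 (−1.22), CXCL2 (−1.28), CXCL8 (−0.961), CCL20 (−1.12), CCL2 (−0.672) and TNFSF9 (−2.23). Of the survival genes IRF1 (−0.512) and IER3 (−0.442) were below 0 and MCL1 (0.465) was above it. Immediate early genes below 0 were JUN (−0.66), FOSL1 (−0.503), IER5 (−0.541), DUSP1 (−0.58), DUSP5 (−0.582), EDN1 (−0.612), RHOB (−0.868) and TRIB1 (−0.701). Those above 0 were FOS (0.894) and DUSP6 (0.76). Outside these lists CD69 (−1.71) and NUAK2 (−0.959) were below 0. The genes above it were TXNIP (1.19), HMOX1 (0.707), ARRDC4 (0.649), SIAH1 (0.606), ARRDC3 (0.565) and KLHL15 (0.564). Each of the 31 calls was lost without the replicate block.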

How the results depend on the processing

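With 2 libraries a group, calls rested on the block. Fitted without the replicate block, the 30 min pair gave 6314 genes, the unstimulated pair 6449, the TNF response 49 with control and 25 with SIK3 siRNA, and the interaction 0. Of 144 named genes 22 then lost their call at 30 min, and 31 of 31 lost it in the interaction. Leaving out each library of the pair gave 8368 to 8542 genes at 30 min, 9652 to 9692 unstimulated, 155 to 440 and 227 to 537 for the TNF responses, and 29 to 65 for the interaction, where 6, 4, 7 and 0 of the 31 calls were lost without SIK3 replicates B and C and control replicates B and C. With no filter the interaction count was 180. At an adjusted p of 0.01 the TNF responses fell to 232 and 274. Scaling by library totals moved the median of all genes at 30 min by 0.087, to 5584 higher and 4285 lower, and 139 of 144 named genes kept their side of the threshold. DESeq2, limma voom, DESeq2 size factors, the stricter filter and the smaller sets of libraries kept the counts of genes called in each comparison within 1.5 times. The 13 interactions above 0 were 20 with DESeq2 and 22 with only the 8 libraries of its groups, and CREB and CRTC targets called lower fell from 2 to 1 with the stricter filter. SIK3 was lower in each alternative that kept the table names, at −1.53 to −1.33 with a library left out. With conditions from the titles the value was −1.32, but between other libraries, those named SIK3 unstimulated and Scr1 4 h. In the pair titled unstimulated, SIK3 was 1.24 and 1.14-fold higher in replicates B and C under the siAS1 title.

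Taking conditions from the titles puts other libraries under the same names. The interaction then gave 8415 genes, the TNF responses 3928 with control and 9980 with SIK3 siRNA, and the unstimulated pair 464. Differences at 30 min that turned sign were RELB −1.09, CSF1 −1.55, FOS 0.735, ATF3 −1.23, EGR3 −1.95, EGR4 −0.117, ID1 0.29, HES1 0.195, KLF6 −0.353, DUSP10 −0.452, GADD45A −0.0407, HBEGF −0.281, SOCS3 −0.535, CCN2 0.559, PLK3 −1.27, PER1 0.425, HLA-E −0.199, HLA-B −1.09, HLA-C −0.37, PVR −0.535, CLDN4 0.0132, MT-RNR1 0.309, MT-RNR2 0.192 and ENSG00000277048.1 0.239. Interactions that turned sign were MCL1 −1.32, FOS −0.219, DUSP5 1.34, DUSP6 −0.41 and KLHL15 −2.25. With each library of the pair left out, ENSG00000277048.1 ranged from −8.77 to 0.0599, above 0 only without control TNF replicate B. The values by title are thus those of other comparisons. Which set of labels is right was not tested, nor was the cause of the change in ENSG00000277048.1.

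Depth limits the low end: 5 of 64 early TNF genes failed the filter on low counts, and a difference in them was not detectable at this depth.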

Other observations

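Growth regulators among the immediate early genes differed between siRNAs with no call in the interaction. MYC, the growth-promoting factor, was at 92.8 and 115 CPM with control siRNA against 152 and 194 CPM with SIK3 siRNA in the presence of TNF (1.67-fold higher, edgeR adjusted p = 2.12e-09). SGK1, a kinase that controls ion transport and survival, was 2.88-fold higher (31.9 and 30.9 against 91.6 and 89.4 CPM). KLF2, a zinc-finger factor that restrains inflammatory genes in endothelium, was 2.51-fold lower (1.48 and 2.04 against 0.560 and 0.834 CPM). The related dominant-negative helix-loop-helix factors ID1 and ID3 went opposite ways, ID1 2.39-fold lower (50.8 and 39.4 against 25.4 and 13.3 CPM) and ID3 2.69-fold higher (6.91 and 5.62 against 18.8 and 14.9 CPM). Among interferon-stimulated genes, ISG15, a ubiquitin-like modifier, was 3.03-fold higher, while IFIT3, an antiviral RNA-binding protein, was 2.04-fold lower (105 and 95.2 against 54.5 and 43.6 CPM). These genes were chosen after their values were seen.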
